A study of Mus musculus with 8 samples.

Results

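The developmental and immature sarcomere genes are 7 of the 20660 genes named on the array: the troponin Tnnt2, the actin Actc1, the myosin heavy chains Myh3 and Myh8, the myosin light chains Myl4 and Myl10, and the thick-filament protein Mybph. They were chosen by their ratios of Eif6+/- over WT muscle on these same arrays, so those ratios are given as a description and without a test. Together they have 9 probes of 1 spot each, and all 9 were well above background in all 16 samples.

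Muscle fibres build their contractile unit, the sarcomere, from families of closely related proteins, and the family members change as a fibre matures. Embryonic and neonatal fibres use forms such as Myh3, Myh8, Myl4, Tnnt2 and Actc1, which are largely replaced by adult forms after birth and return while damaged fibres regenerate. Tnnt2, Actc1 and Myl4 also serve the heart, Myl4 in the atrium.

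Gastrocnemius and tibialis anterior (TA) of male C57BL6 mice aged 8 to 16 weeks were compared between heterozygotes for the translation initiation factor Eif6 (Eif6+/-) and wild-type (WT) littermates. The inactivated allele was carried in the whole body, not in muscle alone. Each of the 8 two-colour arrays, 4 per muscle, set 1 Eif6+/- sample in Cy5 against 1 WT sample in Cy3, with mice paired at random, and the dyes were never exchanged, so that dye and genotype cannot be told apart within a muscle. All arrays lay on 1 slide, each muscle filling its own row, which leaves row and muscle impossible to tell apart, and whether the muscles came from the same mice was not stated.

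The groups were therefore 4 WT and 4 Eif6+/- samples of gastrocnemius and the same of TA. Median spot intensity was 60 to 74 in Cy5 over a local background of 41 to 44, and 46 to 61 in Cy3 over a background of 20 to 22. The share of probes well above background was 43.6% to 48.6% for Cy5 and 38.7% to 46.0% for Cy3. Saturated spots were absent, and the number of arrays limits the precision. Levels are normalized log2 intensities of 1 channel, and ratios are log2 differences of Eif6+/- minus WT on 1 array, so that -1 means 2-fold lower.

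Eif6 itself was examined first. Its brighter probe (A_52_P85864) gave log2 ratios of -0.97, -1.14, -0.88 and -1.06 in gastrocnemius pairs 1 to 4 and of -1.22, -1.03, -0.96 and -0.80 in TA pairs 1 to 4. The means were -1.01 ± 0.11 (SD, n = 4 arrays) and -1.002 ± 0.17 (SD, n = 4 arrays), and the other probe gave -1.13 and -1.12. The ratio lay below 0 on all 8 arrays, although it is not known whether these probes cover the part of Eif6 that was inactivated.

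The Eif6+/- samples of pairs 1 and 4 were nearly identical within each muscle. Over 23326 probes well above background in gastrocnemius and 22839 in TA, their log2 levels differed with an SD of 0.136 in gastrocnemius and 0.144 in TA, whereas the other 5 pairings of Eif6+/- samples gave 0.199 to 0.246 in gastrocnemius and 0.200 to 0.263 in TA. Among probes printed in 10 spots, 4.44% differed between pairs 1 and 4 by more than 2 standard errors in gastrocnemius and 6.25% in TA, where spot noise alone gives about 5%. The other pairings gave 37.3% to 46.0% and 37.9% to 45.9%. The Eif6+/- samples of pairs 1 and 4 thus differed by no more than about the noise between spots, and they were counted as 1 sample in Eif6+/- means, which have n = 3. Their WT partners did differ, so these arrays set nearly identical Eif6+/- samples against different WT samples. The labels do not say whether 1 Eif6+/- RNA was used on both arrays. The ratios are kept at 4 arrays, which hold 4 WT samples and, counted this way, 3 distinct Eif6+/- samples.

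**Figure D1:**
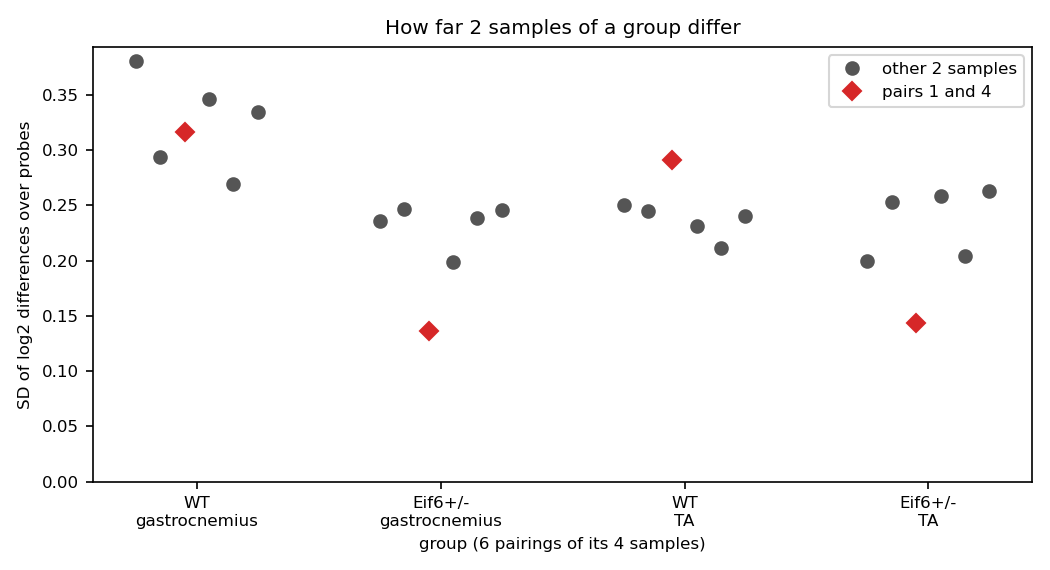
SD, over probes well above background, of the log2 difference between each 2 samples of a group (vertical axis), for the 4 groups, with the pairing of pairs 1 and 4 as diamonds. The diamonds of the Eif6+/- groups lie at 0.136 and 0.144, below the other pairings, and those of the WT groups do not.

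The ratios of the 9 probes differed widely between arrays. In gastrocnemius 26 of 36 probe ratios were below 0, and in TA 22 of 36. These ratios are not independent, since Myh3 and Myh8 count by each of their probes and pairs 1 and 4 hold nearly identical Eif6+/- samples. By brightest probe, the mean ratio was above 0 for 1 of the 7 genes in gastrocnemius and 3 in TA. Over all genes tested it was above 0 for 6893 of 12609 and 6667 of 12381. The median over the 7 genes was -1.21 in gastrocnemius and -0.07 in TA, beside 0.02 and 0.02 over all genes tested. In whole muscle, fewer cells of a type and less RNA per cell cannot be told apart.

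**Figure D2:**
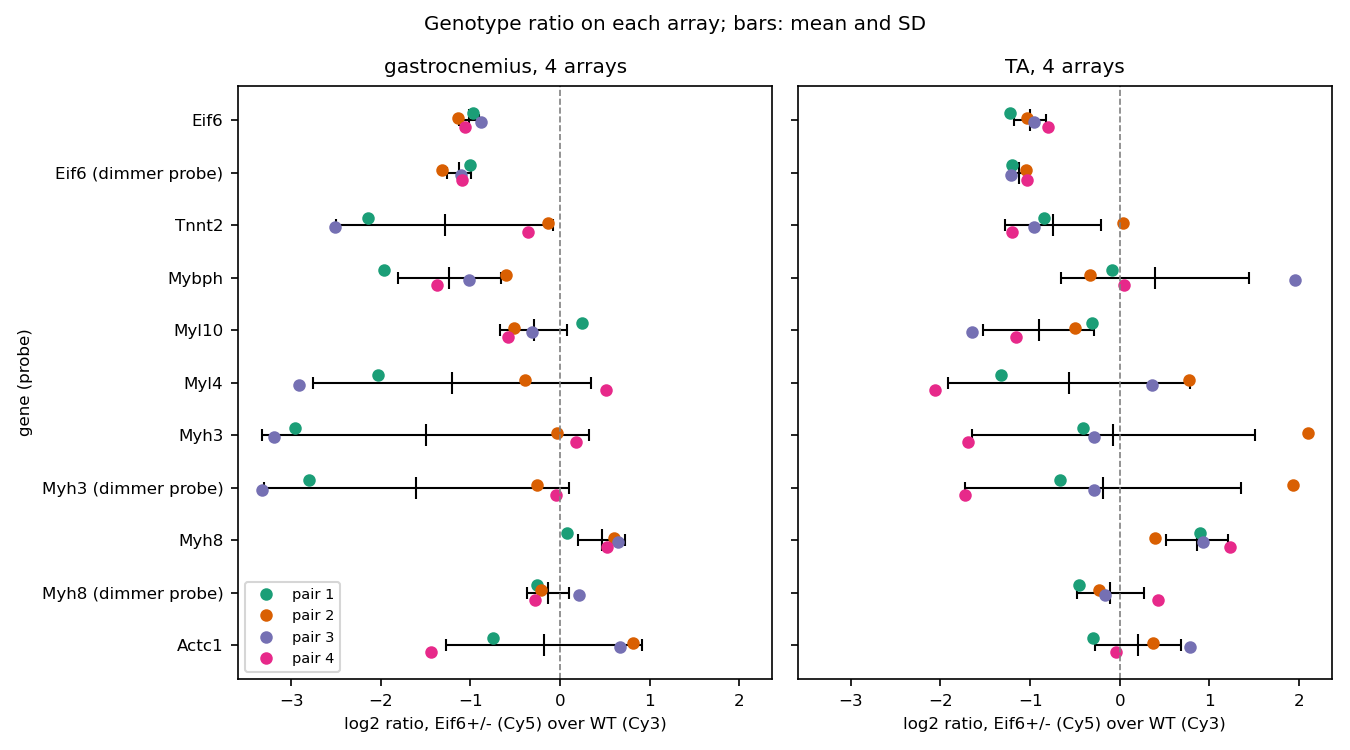
Log2 ratio of Eif6+/- over WT (horizontal axis) for each probe of Eif6 and the 7 genes on the 4 arrays of each muscle, with the mean and SD as bars. Tnnt2, Myh3 and Myl4 in gastrocnemius fall into pairs 1 and 3, at -2.04 or lower, and pairs 2 and 4, at -0.39 or higher.

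Tnnt2, Myh3 and Myl4 had ratios that moved together across the arrays, and their promoters are shown for that reason. RefSeq (GRCm38.p6) listed 10 starts for the 7 genes. The 250 bases before the start are printed for Tnnt2 (the upstream of 2 starts, chr1:135836084-135836333, plus strand), Myh3 (chr11:67078050-67078299, plus strand) and Myl4 (chr11:104550413-104550662, plus strand), with motif matches in capitals.
Tnnt2: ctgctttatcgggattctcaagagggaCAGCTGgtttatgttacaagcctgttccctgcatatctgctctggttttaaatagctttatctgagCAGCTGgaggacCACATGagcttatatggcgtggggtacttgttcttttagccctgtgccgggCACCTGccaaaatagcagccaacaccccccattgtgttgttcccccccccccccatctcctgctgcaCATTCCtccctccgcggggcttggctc
Myh3: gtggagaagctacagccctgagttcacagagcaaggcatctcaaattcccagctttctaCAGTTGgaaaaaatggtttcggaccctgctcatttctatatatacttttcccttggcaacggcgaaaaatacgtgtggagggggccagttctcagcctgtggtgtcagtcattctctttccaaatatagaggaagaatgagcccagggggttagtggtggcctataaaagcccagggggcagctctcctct
Myl4: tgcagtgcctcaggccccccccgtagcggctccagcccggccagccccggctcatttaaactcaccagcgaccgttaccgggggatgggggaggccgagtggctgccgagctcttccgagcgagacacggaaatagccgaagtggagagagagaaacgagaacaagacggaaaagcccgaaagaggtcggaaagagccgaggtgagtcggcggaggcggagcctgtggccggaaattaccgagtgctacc
The search, on both strands, covered the E-box bound by myogenic factors (CANNTG), the MCAT element bound by TEAD factors (CATTCC), the MEF2 box and the CArG box bound by serum response factor. Tnnt2 had 4 E-boxes, whose first bases lay 223, 157, 145 and 94 bases before the start, and 1 MCAT element at 27, while its other start, not printed, had 1 E-box at 156 and no MCAT element; which start is used in muscle is not known. Myh3 had 1 E-box at 191, and Myl4 had no match to any of the 4 motifs. Of all 32851 mouse promoter stretches of this length, 66.2% held an E-box, 12.6% an MCAT element, 2.92% a MEF2 box and 1.47% a CArG box. No match was thus common to the 3 promoters. Among the other genes, Mybph had 1 E-box at 79 next to 1 MCAT element at 73 with no overlap, Myh8 an E-box at 32 and a MEF2 box at 99, and Actc1 a CArG box at 47, while none of the 3 starts of Myl10 held a match. A match is a string of letters, and no binding was measured.

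Tnnt2 (probe A_51_P338262) encodes the cardiac form of troponin T, which ties the troponin complex to tropomyosin on the thin filament. Its WT level in gastrocnemius was 9.68, 8.01, 10.25 and 7.79 in pairs 1 to 4. Its Eif6+/- level was 7.54, 7.87, 7.74 and 7.44 in the same order. The WT samples of pairs 1 and 3 stood above all others, whereas those of pairs 2 and 4 lay within 0.4 of the Eif6+/- samples of their arrays. The log2 ratios were -2.14, -0.14, -2.51 and -0.36, with a mean of -1.29 ± 1.21 (SD, n = 4 arrays).

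In TA the WT level of Tnnt2 was 8.19, 8.11, 8.13 and 8.84, and its Eif6+/- level 7.35, 8.14, 7.17 and 7.64. The Eif6+/- sample of pair 2 lay within the WT range and the others below it, so the groups overlapped by that sample. The ratios were -0.84, 0.03, -0.96 and -1.20, with a mean of -0.74 ± 0.54 (SD, n = 4 arrays). Compared between the muscles, the WT level was 8.93 ± 1.22 (SD, n = 4) in gastrocnemius and 8.32 ± 0.35 (SD, n = 4) in TA, a log2 difference of 0.62 (standard error 0.49) that did not pass limma's test (adjusted p = 0.438). Without gastrocnemius pairs 1 and 3 this difference was -0.41.

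Actc1 (A_55_P2040951) encodes cardiac alpha-actin, the form of thin-filament actin that precedes skeletal Acta1 in the embryo. In gastrocnemius its WT level was 16.52, 16.14, 16.27 and 17.43, and its Eif6+/- level 15.78, 16.95, 16.93 and 15.99. The ranges overlapped, and the ratios of -0.75, 0.81, 0.66 and -1.43 changed sign between arrays (mean -0.18 ± 1.09, SD, n = 4 arrays). In pairs 1 and 4, whose Eif6+/- samples were nearly identical, the ratio was below 0, and in pairs 2 and 3 above it.

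In TA the ratios of Actc1 were -0.30, 0.37, 0.79 and -0.05 (mean 0.20 ± 0.48, SD, n = 4 arrays), again below 0 in pairs 1 and 4 and above it in pairs 2 and 3. The highest Eif6+/- level was 16.85, in pair 3, and the other Eif6+/- samples, at 15.96, 15.91 and 16.01, lay within the WT range of 15.54 to 16.27. The WT level was higher in gastrocnemius than in TA by 0.61 (standard error 0.26), which did not pass limma's test (adjusted p = 0.153).

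Myh3 encodes the embryonic myosin heavy chain, the motor of the earliest fibres and of regenerating ones. In gastrocnemius its brighter probe (A_55_P2066440) had WT levels of 11.28, 6.91, 11.62 and 7.91 and Eif6+/- levels of 8.33, 6.87, 8.43 and 8.09. The WT samples of pairs 1 and 3 again stood far above every other sample, and pair 2 was low in both genotypes. The ratios were -2.96, -0.03, -3.19 and 0.18 (mean -1.50 ± 1.82, SD, n = 4 arrays), the widest spread among the 7 genes.

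In TA the WT levels of Myh3 were 7.72, 7.46, 7.56 and 9.10 and its Eif6+/- levels 7.31, 9.56, 7.28 and 7.41. Here the high samples were the WT sample of pair 4 and the Eif6+/- sample of pair 2. The ratios were -0.40, 2.10, -0.28 and -1.69 (mean -0.07 ± 1.58, SD, n = 4 arrays). The other Myh3 probe (A_55_P2083406) gave means of -1.60 ± 1.70 (SD, n = 4 arrays) in gastrocnemius and -0.19 ± 1.54 (SD, n = 4 arrays) in TA, and across the 8 arrays its ratios had r = 0.998 with those of the first. Between the muscles the WT level of the brighter probe was 1.47 higher in gastrocnemius (standard error 0.96), which did not pass limma's test (adjusted p = 0.341). This difference was 0.61 without pair 3, 2.35 without pair 4 and -0.55 without gastrocnemius pairs 1 and 3.

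Between pairs 1 and 4 of gastrocnemius, whose Eif6+/- samples were nearly identical, the WT levels of Myh3, Myl4 and Tnnt2 differed more than the Eif6+/- levels. For Myh3 the Eif6+/- levels of these arrays differed by 0.24 and the WT levels by 3.38. For Myl4 the Eif6+/- levels differed by -0.04 and the WT levels by 2.51, and for Tnnt2 by 0.10 and 1.88. Among the distinct Eif6+/- samples Myh3 varied as well, from 6.87 in pair 2 to 8.43 in pair 3, so the spread of its ratios over the 4 arrays was not traced to one genotype. The SD of the WT (n = 4) and Eif6+/- (n = 3) levels in gastrocnemius was 2.37 and 0.84 for Myh3. It was 1.52 and 0.36 for Myl4, and 1.22 and 0.19 for Tnnt2. In TA the WT level of Myh3 was lower in pair 1 than in pair 4, by -1.38, and the Eif6+/- levels differed by -0.09.

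**Figure D3:**
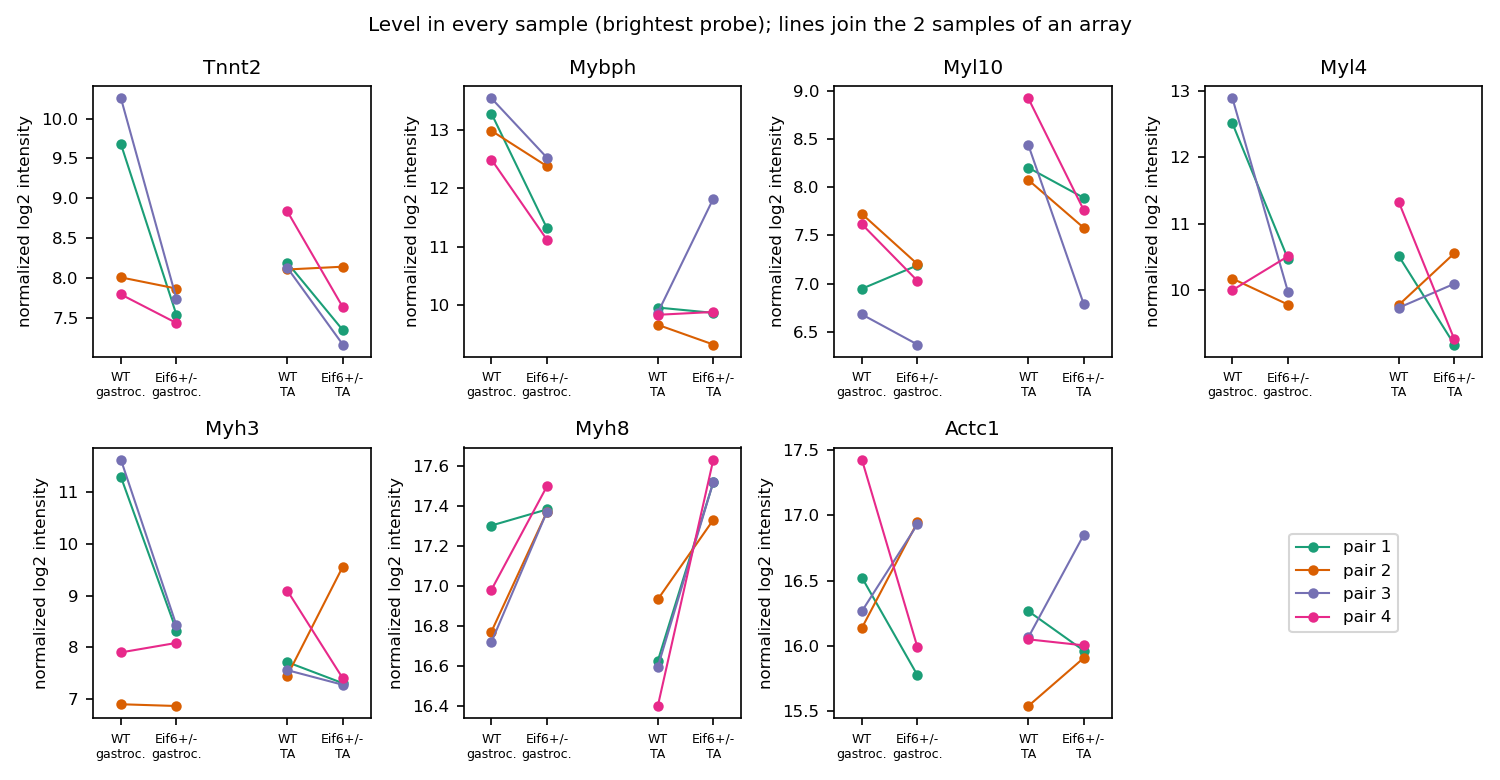
Normalized log2 intensity (vertical axis) of the brightest probe of each gene in the WT and Eif6+/- samples of gastrocnemius and TA, with lines joining the samples of 1 array. The WT samples of gastrocnemius pairs 1 and 3 lie highest for Tnnt2, Myh3 and Myl4, at 9.68 and 10.25, 11.28 and 11.62, and 12.51 and 12.89.

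Myh8 encodes the perinatal myosin heavy chain, and its probes did not give the same direction. The brighter (A_51_P143296) lay at the top of the intensity scale, between 16.40 and 17.63 in all samples. Its ratios were 0.08, 0.60, 0.65 and 0.52 in gastrocnemius (mean 0.46 ± 0.26, SD, n = 4 arrays) and 0.89, 0.40, 0.92 and 1.23 in TA (mean 0.86 ± 0.35, SD, n = 4 arrays). All 8 were above 0, and in each muscle every Eif6+/- sample exceeded every WT sample. In the log2 ratios the authors deposited, which had no quantile step, the means were 0.80 and 1.16.

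The dimmer Myh8 probe (A_55_P2120161) had ratios of -0.26, -0.22, 0.21 and -0.28 in gastrocnemius (mean -0.14 ± 0.23, SD, n = 4 arrays) and of -0.45, -0.24, -0.16 and 0.43 in TA (mean -0.11 ± 0.38, SD, n = 4 arrays). Over the 8 arrays the ratios of the Myh8 probes had r = 0.50. The ratio of the brighter probe followed that of Myh4, the fast IIB myosin and a close relative, with r = 0.92, and that of the dimmer probe had r = 0.38 with Myh4. Probe sequences were not used here, so whether the brighter probe also binds another myosin was not tested.

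Between the muscles the dimmer Myh8 probe was higher in gastrocnemius in both genotypes. Its WT level was 13.92 ± 0.19 (SD, n = 4) in gastrocnemius and 13.19 ± 0.32 (SD, n = 4) in TA, and the ranges did not overlap. The log2 difference was 0.73 (standard error 0.16, limma adjusted p = 0.0182), with adjusted p of 0.00170 to 0.0647 over the alternatives. In Eif6+/- muscle it was 0.75 (standard error 0.09, 3 against 3 samples, limma adjusted p = 0.0257), and without pair 2 it was 0.69 with adjusted p = 0.401. The brighter probe differed by 0.31 in WT muscle (adjusted p = 0.198) and by -0.08 in Eif6+/- muscle (adjusted p = 0.631). In a fit of all channels together the WT difference of the brighter probe passed too (adjusted p = 0.0924).

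Myl4 (A_55_P2107045) encodes the essential light chain of embryonic muscle and atrium, which braces the lever arm of myosin. Its WT level in gastrocnemius was 12.51, 10.18, 12.89 and 10.00, and its Eif6+/- level 10.48, 9.79, 9.98 and 10.51. As for Tnnt2 and Myh3, the WT samples of pairs 1 and 3 were high, by about 2 log2 units or more over every other sample. The ratios were -2.04, -0.39, -2.91 and 0.51 (mean -1.21 ± 1.55, SD, n = 4 arrays).

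In TA the WT level of Myl4 was 10.51, 9.78, 9.74 and 11.33 and its Eif6+/- level 9.19, 10.56, 10.10 and 9.27. The WT sample of pair 4 was the highest, and the groups overlapped. The ratios were -1.33, 0.78, 0.36 and -2.06 (mean -0.56 ± 1.35, SD, n = 4 arrays), and the mean was -1.01 without pair 2 and -0.06 without pair 4. The WT difference between the muscles was 1.05 (standard error 0.65), which did not pass limma's test (adjusted p = 0.314). This difference was 1.85 without pair 4 and -0.25 without gastrocnemius pairs 1 and 3.

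Myl10 (A_52_P205710) encodes a regulatory light chain related to the fast Mylpf. In gastrocnemius its WT level was 6.95, 7.72, 6.68 and 7.61 and its Eif6+/- level 7.19, 7.20, 6.37 and 7.03. Pair 3 was the lowest in both genotypes, and the groups overlapped. The ratios were 0.24, -0.52, -0.31 and -0.59 (mean -0.29 ± 0.38, SD, n = 4 arrays).

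In TA the WT level of Myl10 was 8.20, 8.07, 8.44 and 8.92 and its Eif6+/- level 7.89, 7.58, 6.79 and 7.76. Every Eif6+/- sample lay below every WT sample, with pair 3 the lowest. The ratios were -0.31, -0.50, -1.65 and -1.16 (mean -0.90 ± 0.62, SD, n = 4 arrays). Myl10 was the gene of the 7 with a WT level clearly lower in gastrocnemius than in TA.

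That WT difference of Myl10 was -1.17 (standard error 0.25, 2.25-fold, 4 against 4 samples, limma adjusted p = 0.0181), and no gastrocnemius sample reached the lowest TA sample. Over the alternatives it lay between -1.78 and -0.74, and its adjusted p did not exceed 0.0958. In Eif6+/- muscle the difference was -0.50 (standard error 0.29, 3 against 3 samples), the ranges overlapped, and the test was not passed (limma adjusted p = 0.379). With pairs 1 and 4 as separate samples it was not passed either (0.185), but with the pair number added as a block it was (0.0194).

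Mybph (A_51_P137121) encodes myosin-binding protein H, a relative of myosin-binding protein C on the thick filament. In gastrocnemius its WT level was 13.28, 12.98, 13.54 and 12.49 and its Eif6+/- level 11.32, 12.38, 12.52 and 11.12. The ranges met only at the WT sample of pair 4, which lay just below the Eif6+/- sample of pair 3. The ratios were -1.96, -0.61, -1.02 and -1.37 (mean -1.24 ± 0.57, SD, n = 4 arrays), below 0 on every array.

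In TA the WT level of Mybph was 9.96, 9.66, 9.87 and 9.83 and its Eif6+/- level 9.87, 9.32, 11.82 and 9.88. The Eif6+/- sample of pair 3 stood alone, those of pairs 1 and 4 lay within the WT range, and that of pair 2 lay below it. The ratios were -0.09, -0.34, 1.95 and 0.05 (mean 0.39 ± 1.05, SD, n = 4 arrays), and without pair 3 the mean was -0.13. In the Eif6+/- TA samples the mean of 10 connective tissue and tendon markers was 11.26, 11.10, 12.34 and 11.24, and that of 8 fat markers 8.79, 8.04, 9.59 and 8.81, so that these markers too were highest in pair 3. Of the fat markers 6 were above background in all 16 samples, none was absent from all, and Fabp4 was the brightest. Other lists were not highest in pair 3, with means of 8.99, 8.38, 8.87 and 9.02 for leukocytes and 7.83, 7.89, 7.72 and 7.81 for nerve. Smooth muscle had 10.38, 10.24, 10.16 and 10.39, and blood 9.66, 9.43, 9.43 and 9.74. In WT gastrocnemius Mybph was also highest in pair 3, where connective tissue markers were highest (13.04) and fat markers lowest (9.33). The part of these tissues in the Mybph level was not tested.

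WT gastrocnemius held far more Mybph than WT TA. The log2 levels were 13.07 ± 0.45 (SD, n = 4) and 9.83 ± 0.12 (SD, n = 4), with no overlap. The log2 difference was 3.24 (standard error 0.19, 9.47-fold, limma adjusted p = 3.77e-05), and it lay between 2.91 and 3.44 over the alternatives with adjusted p of at most 0.00236. In Eif6+/- muscle the levels were 12.04 ± 0.72 (SD, n = 3) and 10.34 ± 1.31 (SD, n = 3). That difference of 1.70 (standard error 0.61) did not pass limma's test (adjusted p = 0.191), but it was 2.20 with adjusted p = 0.0848 without pair 3, which holds the high TA sample, and 1.02 with adjusted p = 0.702 without pair 2. Counting pairs 1 and 4 as separate samples made it 1.61, which passed (adjusted p = 0.0754), also in a fit of all channels together (0.0397) and with the pair number as a block (0.0411).

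The comparisons between muscles set samples of one genotype and one dye against each other, a contrast that played no part in choosing the genes, but they use the same WT and Eif6+/- samples as the ratios and are in that sense not independent of them. By their brightest probes, 2 of the 7 genes passed limma's test in WT muscle, Mybph higher and Myl10 lower in gastrocnemius, beside 22.9% of all genes tested. In Eif6+/- muscle 0 of 7 passed, beside 2.93% of all genes. Of the 7, 1, Mybph, had an unadjusted p under 0.05 with limma, beside 2700 of 12607 genes. A share of 2 in 7 is near that over all genes, so the count as such sets these genes apart in neither genotype.

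**Figure D4:**
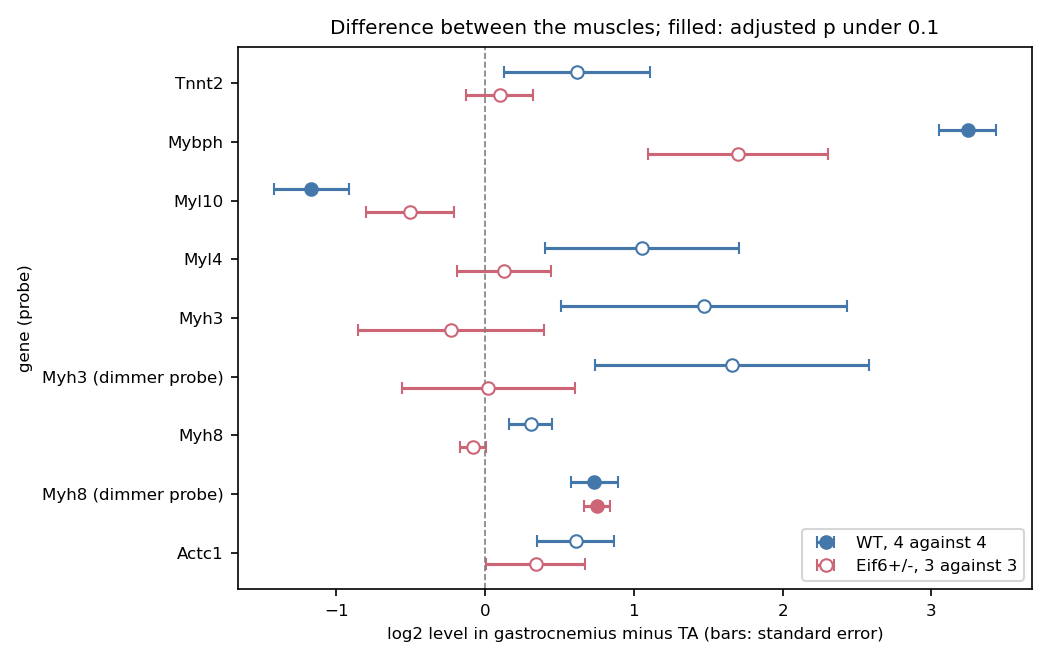
Log2 level in gastrocnemius minus TA (horizontal axis) for each probe of the 7 genes in WT (4 against 4) and Eif6+/- (3 against 3) muscle, with the standard error as bars and filled points where limma's adjusted p was under 0.1. Mybph in WT lies at 3.24, Myl10 in WT at -1.17, and the dimmer Myh8 probe at 0.73 and 0.75.

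The genes fell into several patterns across the 8 arrays, where arrays 1 and 4 of a muscle hold nearly identical Eif6+/- samples. The ratios of Tnnt2 and Myh3 had r = 0.94, those of Myh3 and Myl4 r = 0.90, and those of Tnnt2 and Myl4 r = 0.86 (n = 8 arrays each). Mybph ran opposite to Myl10, with r = -0.88 (n = 8 arrays). Actc1 followed none of Tnnt2, Myh3 or Myl4, with r between -0.04 and 0.06 (n = 8 arrays).

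Among 12199 genes kept in both muscles, the ratio most like that of Tnnt2 belonged to Slc2a6 (r = 0.98), followed by Gng2 and Mt3 (r = 0.95 each). For Myh3 these genes were Lbh (r = 0.97), Syce2 (r = 0.97) and R3hdml (r = 0.96). For Myl4 they were Ldlrad4 (r = 0.96), Zfp365 (r = 0.95) and Faap20 (r = 0.95). None of these lists shared a gene. For Mybph the nearest genes were Lpar4 (r = 0.99), Sfxn3 (r = 0.96) and Zfp58 (r = 0.94). For Myl10 they were Msl1 (r = 0.97), Sar1a (r = 0.96) and Insig2 (r = 0.96). For Actc1 they were Itpr1 (r = 0.97), Spag5 (r = 0.97) and Alyref (r = 0.95). For Myh8, by its brighter probe, they were Dop1b (r = 0.93), Ppat (r = 0.92) and Myh4 (r = 0.92). With so many genes and only 8 arrays, some with nearly identical Eif6+/- samples, high values of r are found for any gene. The ratios of several of these neighbours stayed small, as for Zfp58, between -0.08 and 0.22.

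Genes of regeneration and denervation were looked at beside the 7 genes, since embryonic sarcomere forms reappear in both states. The WT samples of gastrocnemius pairs 1 and 3 were the highest of the 4 WT samples in 13 of 28 such genes (46.4%), beside 22.3% of 13810 genes. For the Eif6+/- samples of the same pairs it was 5 of 28 (17.9%), beside 11.9% of 14170 genes. These pairs were singled out after the values of Tnnt2, Myh3 and Myl4 had been seen, so the counts are a description.

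Myog, a myogenic factor of differentiating muscle cells, had WT levels of 8.42, 7.21, 8.47 and 7.26 in gastrocnemius. The fusion protein Mymk had 7.76, 6.51, 8.48 and 6.42, and the fusion protein Mymx 8.50, 6.59, 8.18 and 6.15, each measured above background in 3 of these 4 samples, pair 4 being the exception. The acetylcholine receptor subunit Chrna1 had 10.54, 9.59, 10.86 and 9.18. These 4 genes, named after their values were seen, were thus high in the same WT samples as Tnnt2, Myh3 and Myl4. Other genes of the list were not, and several were lowest in pair 1. Ankrd2 had 10.72, 12.64, 12.04 and 13.48, Csrp3 10.07, 10.89, 11.17 and 12.06, and Chrne 7.11, 8.03, 7.80 and 7.26. Xirp1 had 9.30, 10.46, 10.06 and 10.12, and desmin Des 13.85, 14.61, 14.40 and 14.12. Among Eif6+/- samples Mymx was highest in pair 2 in both muscles, at 7.52 in gastrocnemius, where Myh3 was the lowest of its group, and at 7.33 in TA, where Myh3 was the highest. The satellite cell factor Pax7 had 6.57, 6.53, 6.50 and 6.92 in WT gastrocnemius, and Myf5 was not well above background in any sample.

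**Figure D5:**
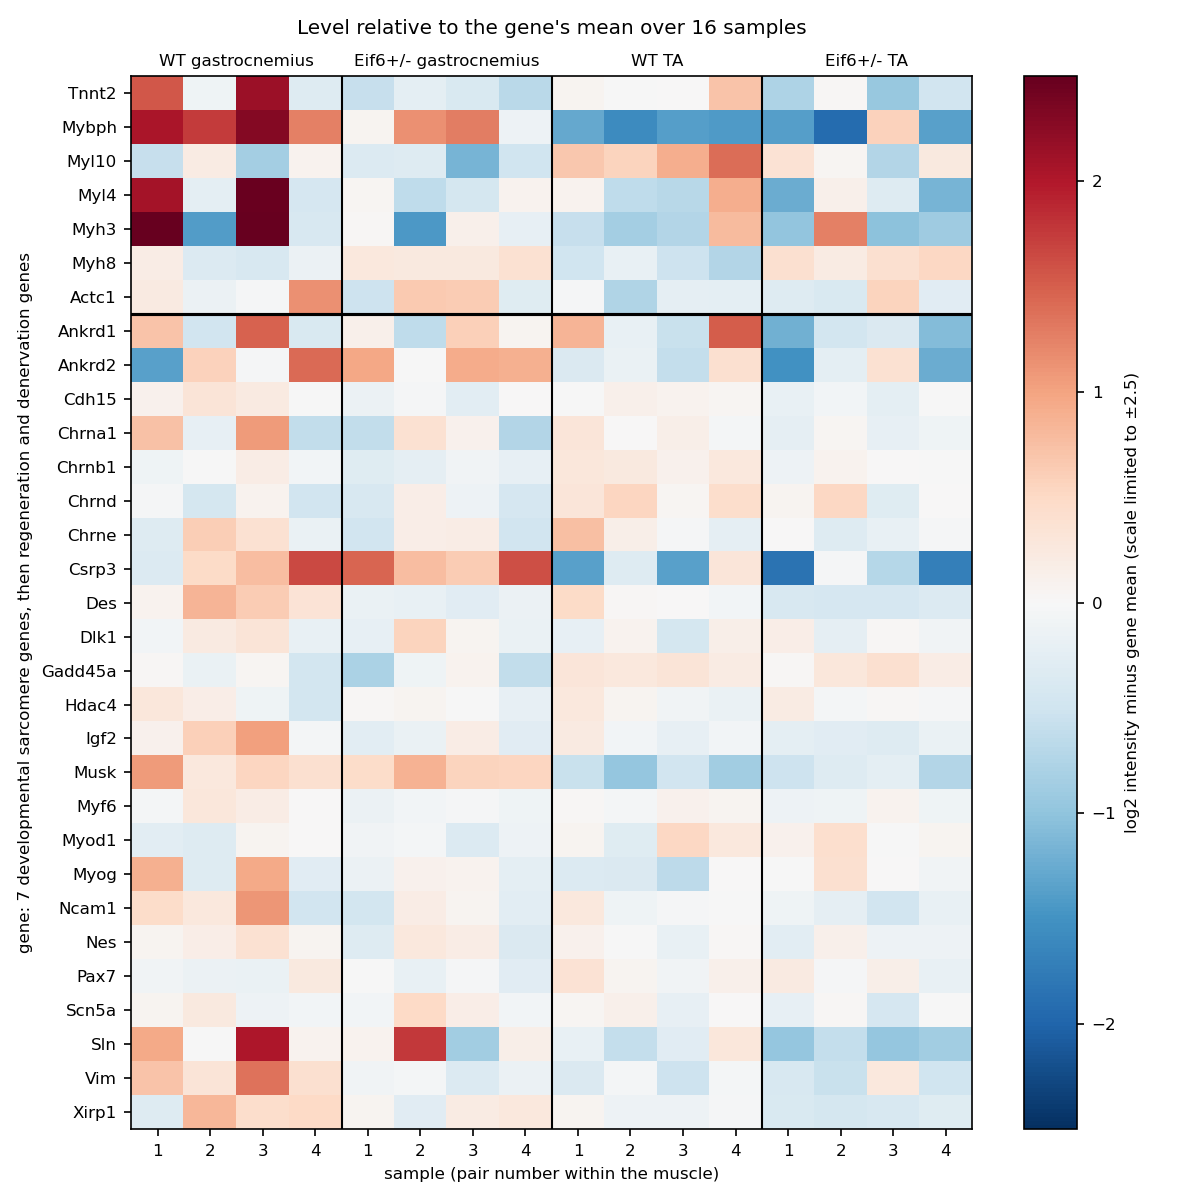
Log2 intensity of the 7 genes and of 24 regeneration and denervation genes above background in all 16 samples (rows), minus the mean of the gene, in each sample (columns, numbered by pair); colours stop at ±2.5. WT gastrocnemius pairs 1 and 3 are high for Tnnt2, Myl4 and Myh3 and for Myog, Chrna1 and Sln.

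Markers of other tissues were read in the same samples. The mean log2 level of 10 leukocyte markers was 9.83, 9.14, 10.42 and 9.01 in WT gastrocnemius pairs 1 to 4, and 8.90, 9.10, 8.94 and 8.91 in the Eif6+/- samples. It was thus also highest in WT pairs 1 and 3. Of these markers 9 were above background in all samples, none was absent from all, and H2-Ab1 was the brightest. The mean of 10 connective tissue and tendon markers, Col1a2 the brightest, was 12.50, 11.83, 13.04 and 12.30 in WT gastrocnemius, again highest in pairs 3 and 1, and 12.41, 11.93, 12.12 and 12.39 in the Eif6+/- samples. Of these markers 9 were above background in all samples and none was absent from all. Other lists did not follow this order in WT gastrocnemius. In pairs 1 to 4 the mean of 8 fat markers was 10.16, 9.88, 9.33 and 10.98. That of 7 nerve markers was 8.64, 8.96, 7.95 and 8.32, and that of 7 smooth muscle markers 11.44, 10.93, 10.85 and 11.32. These means were lowest in pair 3. The mean of 8 blood markers was 10.04, 10.09, 10.73 and 9.92, highest in pair 3. The part of these cells and tissues in the levels of the 7 genes was not tested.

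The heart was represented by 11 markers, since Tnnt2, Actc1 and Myl4 are also cardiac genes. Of these, 8 were above background in no sample, among them Nppa, Nppb, Tnni3, Mybpc3 and Ryr2, and only Myh6 was measured in all 16. The levels of Tnnt2, Actc1 and Myl4 were thus read in samples in which most cardiac markers were not well above background.

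In WT gastrocnemius against WT TA, adult sarcomere genes gave 7 higher and 6 lower of 38 tested, beside 8.64% and 14.2% of all genes, with a median of 0.18, beside -0.04 over all genes tested. Among the higher genes were the slow light chain Myl2 by 4.60 (standard error 0.86, adjusted p = 0.0113), slow troponin I Tnni1 by 2.09 (standard error 0.40, adjusted p = 0.0124) and slow myosin Myh7 by 4.03 (standard error 1.04, adjusted p = 0.0341, lost without pair 3 or pair 4, up to 0.174). Slow troponin T Tnnt1 (2.38), slow troponin C Tnnc1 (2.12) and the M-band protein Myom3 (1.36) also passed, but not without pair 3 (adjusted p = 0.128, 0.106 and 0.148). The fast Mybpc2 was higher by 0.51, though not without pair 2. Lower in gastrocnemius were Myh6 by -1.55, the IIX myosin Myh1 by -1.44, slow myosin-binding protein C Mybpc1 by -1.38, Myh13 by -0.85 (above background in 3 of 4 gastrocnemius samples), Lmod3 by -0.45 and Tpm2 by -0.41. Over the alternatives the adjusted p rose to 0.126 for Mybpc2, 0.165 for Myh13, 0.351 for Lmod3 and 0.261 for Tpm2, and Tpm2 was lost whichever pair was left out. Without pair 3, 6 of the 38 passed in all, beside 1403 of 21499 probes.

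The same comparison in Eif6+/- muscle, with 3 against 3 samples, gave 5 higher and 0 lower of 38 adult genes, beside 1.11% and 1.82% of all genes, with a median of 0.02 beside -0.02 over all genes. They were Myl2 by 5.50, Myh7 by 4.49, Tnnt1 by 3.05, Myom3 by 2.30 and the IIA myosin Myh2 by 1.86. Without pair 2, 0 of the adult genes passed with limma, beside 2 of 23916 probes, and 12 had an unadjusted p under 0.05, beside 1909 probes. Without pair 3, 3 passed, beside 433 of 23906 probes.

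Of 24 regeneration and denervation genes tested in WT muscle, 3 were higher in gastrocnemius and 2 lower (median 0.16), beside 8.64% and 14.2% of all genes. Csrp3, a stretch-linked protein of slow fibres, was higher by 1.32, the synaptic kinase Musk by 1.29 and vimentin Vim by 0.94, while the receptor subunit Chrnd was lower by -0.54 and Gadd45a by -0.41. Musk and Vim held whichever pair was left out, while over the alternatives the adjusted p rose to 0.319 for Csrp3, 0.195 for Chrnd and 0.129 for Gadd45a. Without pair 2, 2 of them passed, beside 2750 of 21507 probes. In Eif6+/- muscle Csrp3 (1.82) and Musk (1.04) were the 2 of 27 that passed, both higher, beside 1.11% of all genes, with a median of 0.11 over the list. Without pair 1 or without pair 3, 1 passed, beside 267 of 23909 and 433 of 23906 probes. Without pair 2 none did with limma, 6 having an unadjusted p under 0.05, beside 1909 of 23916 probes. Myog did not pass in either genotype, and the fusion proteins Mymk and Mymx were too dim to be tested in WT muscle.

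The muscles also differed in markers of other tissues. In WT muscle 5 of 7 fat markers (median 2.29), 8 of 10 connective tissue and tendon markers (1.07), 2 of 9 leukocyte markers (0.73) and 1 of 7 nerve markers (0.41) were higher in gastrocnemius, beside 8.64% of all genes. Of blood and smooth muscle markers 0 of 6 and 0 of 7 passed with limma, with 0 and 2 at an unadjusted p under 0.05, beside 3800 of 11832 genes. The adipocyte proteins Cfd and Adipoq were higher by 3.33 and 2.87, and the tendon proteoglycan Fmod by 2.89. Without pair 3 the connective tissue and tendon calls Tnmd, Col1a1, Thbs4 and Pdgfra were lost (adjusted p up to 0.132, 0.269, 0.457 and 0.153 over the alternatives), and Col1a1 and Thbs4 were also lost without pair 1 or pair 4, Tnmd without pair 4 and Pdgfra without pair 1. The leukocyte calls, C1qb (1.43) and C1qa (1.40), were lost without pair 1 and, for C1qb, without pair 3 (adjusted p up to 0.206 over the alternatives). The nerve call, Pmp22 (0.71), was lost without pair 1, pair 2 or pair 4 (adjusted p up to 0.259 over the alternatives). In Eif6+/- muscle 1 of 6 blood markers (Hbb-bs, 0.81, adjusted p = 0.0950) passed, beside 1.11% of all genes higher, but not without pair 1, pair 2 or pair 3 (adjusted p up to 0.603 over the alternatives). Of fat, connective tissue, leukocyte, smooth muscle and nerve markers none did with limma. Of these, 4 of 7, 5 of 10, 3 of 9, 5 of 7 and 6 of 7 had an unadjusted p under 0.05, beside 2700 of 12607 genes. The part of these tissues in the differences of Mybph, Myl10 and Myh8 was not tested.

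The adult counterparts were listed with earlier results of these data known. In gastrocnemius 5 of 38 were higher in Eif6+/- muscle, beside 10.2% of all genes tested, and 3 lower, beside 5.50%, with a median of 0.05. The higher were Mybpc1 (1.22), Myh1 (0.95), Myom3 (0.95), Tcap (0.68) and Lmod3 (0.44), and the lower were Ldb3 (-0.39), Actn3 (-0.36) and Mybpc2 (-0.30). Without pair 3 or without pair 4, none of the 38 passed with limma. Of them 13 and 12 had an unadjusted p under 0.05, beside 4241 and 4433 of 23802 probes. Without pair 1, 18 passed, beside 3084 of 23802 probes. With the ratios of pairs 1 and 4 averaged, since their Eif6+/- samples were nearly identical, Lmod3 and Mybpc2 did not pass.

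In TA 4 of 38 were higher in Eif6+/- muscle, beside 8.81% of all genes, and 9 lower, beside 7.40%, with a median of -0.09. The fast forms Myh4 (0.80) and Tnnc2 (0.57), with Myom2 (0.53) and Tpm1 (0.49), were higher. Among the lower were the slow forms Tnnt1 (-0.90), Tnni1 (-0.80), Myh7b (-0.68) and Tnnc1 (-0.41), and also Myh13 (-0.67), Actn2 (-0.62), Tpm2 (-0.35) and Mylpf (-0.32). Without pair 1 none of the 38 passed with limma, and 15 had an unadjusted p under 0.05, beside 3908 of 23391 probes. Actn2 did not pass with pairs 1 and 4 averaged.

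Of the regeneration and denervation genes, 4 of 27 were lower and 0 higher in Eif6+/- gastrocnemius (median -0.27), beside 5.50% and 10.2% of all genes: Vim (-0.85), desmin Des (-0.67), Igf2 (-0.56) and the adult receptor subunit Chrne (-0.28). Without pair 3 or pair 4 none passed with limma, with 4 and 9 at an unadjusted p under 0.05, beside 4241 and 4433 of 23802 probes. In TA, beside 7.40% of all genes lower and 8.81% higher, 4 of 26 were lower, Sln (-0.66), Des (-0.50), Xirp1 (-0.32) and Ncam1 (-0.28), and Myog was higher (0.42, above 0 on 3 of 4 arrays), with a median of -0.17. Without pair 1 none passed with limma, with 7 at an unadjusted p under 0.05, beside 3908 of 23391 probes. Without pair 2, 2 passed, beside 966 of 23391 probes. With pairs 1 and 4 averaged 2 passed in gastrocnemius, beside 1609 of 23802 probes, Vim and Chrne being lost. In TA Sln and Ncam1 were lost with this average.

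Markers of other tissues were called in these ratios too. In gastrocnemius, beside 5.50% of all genes lower, Cd74, of 9 leukocyte markers (median -0.73), was lower by -1.09, Cfd and Adipoq, of 7 fat markers (median -0.24), by -0.89 and -0.64, Des and Acta2, of 7 smooth muscle markers (median -0.22), by -0.67 and -0.44, and Hbb-bs, of 5 blood markers (median -0.27), by -0.59. In TA, beside 7.40% of all genes lower and 8.81% higher, 5 of 6 blood markers (median -0.70), 5 of 7 smooth muscle markers (-0.51), 4 of 7 nerve markers (-0.30) and 1 of 10 leukocyte markers (-0.07) were lower, and 3 of 7 fat markers (0.51) higher. No connective tissue or tendon marker of 10 passed with limma in either muscle (1 and 0 at an unadjusted p under 0.05), no nerve marker of 7 in gastrocnemius (0 at an unadjusted p under 0.05), and Myh6, the 1 cardiac marker tested, in neither. Over all genes, 3664 of 12609 in gastrocnemius and 3595 of 12381 in TA had an unadjusted p under 0.05 with limma. These calls were lost with limma without pair 3 or pair 4 of gastrocnemius and without pair 1 of TA, where no probe passed. With pairs 1 and 4 averaged the calls of Cfd, Adipoq and Acta2 in gastrocnemius were lost, as were all 3 fat calls in TA (Retn, Cidec and Plin1) and those of C1qb and the nerve marker Mbp. The part of these tissues in the ratios of the 7 genes was not tested.

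The difference of the ratio between gastrocnemius and TA passed limma's test for none of 12200 genes, a share of 0%, and 1034 had an unadjusted p under 0.05. None of 38 adult or 26 regeneration and denervation genes passed, with 8 and 2 at an unadjusted p under 0.05, nor did any of 1 cardiac, 7 smooth muscle, 5 blood, 9 leukocyte, 10 connective tissue and tendon, 7 fat and 7 nerve markers, with 0, 0, 3, 0, 0, 4 and 2 at an unadjusted p under 0.05. The ratios of the 7 genes in the muscles are therefore given side by side: -1.29 and -0.74 for Tnnt2, -0.18 and 0.20 for Actc1, -1.50 and -0.07 for Myh3, 0.46 and 0.86 for Myh8, -1.21 and -0.56 for Myl4, -0.29 and -0.90 for Myl10, and -1.24 and 0.39 for Mybph.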

How the data were processed

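The authors deposited the scanner output of each array, with spot intensities that were not normalized, and a table of log2 ratios. The deposited log2 ratios matched loess-normalized ratios of uncorrected intensities (r of 0.999963 to 0.999996; medians of the 8 columns 0.00257, 0.000831, -0.00441 and 0.00375 in gastrocnemius and 0.00138, -0.000366, 0.00288 and 0.00212 in TA), so scale, centring and direction (Cy5 over Cy3) are known. They were used as an alternative. Sample labels give Eif6+/- in Cy5 and WT in Cy3; the methods name Cy3 labelling alone.

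Here, median intensities were background-corrected with normexp (offset 50), normalized by loess within arrays (control spots at weight 0) and by quantiles over 16 channels; controls and 233 to 318 outlier spots per array were left out and spots of a probe averaged. A ratio was tested where 1 channel or more was well above background on all 4 arrays of a muscle (23802 probes in gastrocnemius, 23391 in TA), and a level where its channel was so in 1 muscle or both. limma 3.58.1 (R 4.3.3) gave p-values, adjusted by Benjamini-Hochberg over all probes, with a threshold of 0.1 chosen for these tests in place of SAM, which the methods name and which was an alternative. The steps were tested on simulated data. Figures used matplotlib 3.10.9 (Python 3.11.15). Of 55681 probes, 28685 carried a RefSeq accession and 27235 matched a gene; the brightest probe stood for a gene. Promoters of all 7 genes were found in RefSeq's table.

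The Eif6+/- muscle comparison counted pairs 1 and 4 once, unlike the planned 4 against 4. Nothing states whether WT samples of a muscle were processed apart, so p-values measure the spread between these samples. Named genes were Eif6 and the 7 genes by every probe; of each list the genes past the threshold (up to 10 adult genes and 5 of each other list, by size); and the 3 genes closest in ratio to each of the 7. Lists were adult sarcomere counterparts (43 of 44 measured), regeneration and denervation (29 of 30), cardiac muscle, smooth muscle, blood, leukocytes, connective tissue and tendon, fat, and peripheral nerve. The 7 genes and the lists were chosen with earlier results of these data known. Alternatives were other normalization, background correction, offset, filters, Agilent's processed signals, tests and thresholds, and each pair left out. Soleus was not analysed here. The value of 1 adult gene past the threshold is not reported.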

Additional observations from a re-analysis of the deposited data

Results flagged for a closer look

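Of 44 groups of 4 samples looked at for the probes of Eif6 and the 7 genes, 4 held a sample whose distance to the nearest other sample took up an unusually large part of the range of the group. Chance alone marks about 1 in 20 groups. The WT level of Tnnt2 in TA pair 4 was 8.84, above the other WT samples of TA. The WT level of Myh3 (A_55_P2066440) in the same sample was 9.10, likewise above the others. The log2 ratio of Mybph in TA pair 3 was 1.95, above the other TA arrays. The log2 ratio of the dimmer Myh8 probe in gastrocnemius pair 3 was 0.21, above the other gastrocnemius arrays.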

How the results depend on the processing

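The number of probes past the threshold depended on single arrays and, between Eif6+/- muscles, also on the fit. It was 3347 for the ratio in gastrocnemius, 3558 for that in TA, 0 for their difference (1757 at an unadjusted p under 0.05), 4398 between WT muscles and 589 between Eif6+/- muscles. With 1 pair left out it ranged from 0 to 3084, from 0 to 3482, from 0 to 8, from 1403 to 4100 and from 2 to 760. With offset 0 it was 2262 for the TA ratio and 292 between Eif6+/- muscles; with Agilent's processed signals 1781 and 226, and 1 for the difference of ratios; without the filter on dim probes, where more probes are tested, 5524 for TA and 1 for the difference. Of the probes called for the TA ratio, 49.5% were higher, and 60.1% with loess alone; between Eif6+/- muscles 44.3% were higher, and 62.6% without pair 3. SAM called 5216 probes in gastrocnemius. A fit of all channels together, which also counts pairs 1 and 4 as separate samples, gave 2170 between Eif6+/- muscles and 6488 between WT muscles. The average of the ratios of pairs 1 and 4 (1609 in gastrocnemius) was chosen after seeing the data. So were the WT comparison without gastrocnemius pairs 1 and 3 (1777) and the count of pairs 1 and 4 as 1 Eif6+/- sample (589). The planned 4 against 4, with pairs 1 and 4 as separate Eif6+/- samples, gave 3478. All of these change the number of samples. Elsewhere the cause was not tested.

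Pair numbers did not pair the muscles. Deviations of samples with the same number correlated at -0.17, 0.01, -0.37 and 0.09 for ratios, 0.19, 0.01, 0.03 and 0.16 for Eif6+/- levels and -0.40, 0.11, -0.07 and 0.19 for WT levels, and not every sample was closest to its own number. With the pair number as a replicate block, counts were 0 for the difference of ratios, 2999 between WT muscles and 3712 between Eif6+/- muscles, the last with pairs 1 and 4 as separate samples. Of the 7 genes' muscle differences, Mybph and Myl10 passed in Eif6+/- muscle with the block (adjusted p = 0.0411 and 0.0194). With pairs 1 and 4 as separate samples and no block, Mybph already passed (adjusted p = 0.0754) and Myl10 did not (0.185).

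The mean ratio of the brighter Myh8 probe in gastrocnemius was 0.77 with loess alone and 0.80 in the deposited ratios. With 1 pair left out, the mean ratio in gastrocnemius ranged from -2.06 to -0.94 for the brighter Myh3 probe, from -1.78 to -0.64 for Myl4 and from -1.67 to -0.88 for Tnnt2, and in TA from -0.79 to 0.47 for Myh3 and from -1.01 to -0.06 for Myl4. Mean ratios changed sign for Actc1 in gastrocnemius (up to 0.24, without pair 4), Mybph in TA (-0.13, without pair 3), Myh3 in TA by both probes (up to 0.47, without pair 4) and the dimmer Myh8 probe in TA (0.01, without pair 1). With pairs 1 and 4 averaged those of Actc1 in gastrocnemius and Myh3 in TA changed sign as well. Those of Myl4 and of the brighter Myh3 probe in gastrocnemius changed sign without pairs 1 and 3, which were singled out by these values. Of the values of their muscle differences, 215 kept their direction and side of the threshold, 6 newly passed, 1 no longer passed and 12 changed sign, none of them past the threshold. Probes close to background limit what dim genes can show.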
